A study of Mus musculus with 12 samples.

Results

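Autophagy genes were measured in cultured granule neurons, the small and numerous glutamatergic cells of the cerebellum, that carried or lacked the gene for interferon beta. Drawn up with earlier results of these data known, the set listed 41 genes by their roles in the autophagy machinery, cargo receptors included. Of these, 40 were read on the arrays, among 18193 genes in all, each from the brightest of the probe sets that name that gene alone, by the mean of the 12 arrays. Optn, a cargo receptor, had no such probe set and is not analysed here. Granule neurons of strain B10.RIII were prepared from pups 7 days old, of wild-type (Ifnb+/+) or Ifnb-/- genotype, and kept in culture for 3 days. The 12 cultures, 1 array each, formed 4 groups of 3, namely untreated Ifnb+/+, untreated Ifnb-/-, Ifnb+/+ with IFN-b and Ifnb-/- with IFN-b, where treated cultures received IFN-b at 100 U/ml for 24 hours. Whether the 3 cultures of a group came from separate litters is not stated, so a p-value here speaks only of the spread among these cultures.

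Autophagy encloses cytoplasm in a double membrane, the autophagosome, which then fuses with lysosomes. The Ulk kinase complex starts the process under the control of nutrient and energy sensors, a lipid kinase complex marks the membrane, transfer proteins and scramblases supply lipid, and 2 ubiquitin-like conjugation systems attach the LC3 and GABARAP proteins to it. Cargo receptors such as p62 (Sqstm1) bind ubiquitinated proteins or organelles on one side and LC3 on the other, and neurons, which do not divide, rely on this route to clear aggregates.

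All values below are log2 RMA values, and a difference of log2 values is called a log2 fold change. Each comparison was tested with limma over all genes, and a gene was called at a Benjamini-Hochberg adjusted p under 0.05. The fit gave each gene 1 spread shared by all 12 arrays, so arrays outside a comparison also enter its p. The 18 interferon-stimulated genes read as a control of the treatment were all called higher with IFN-b in Ifnb+/+ (median log2 fold change 5.65), and 14 of 18 in Ifnb-/- (median 4.76). Between the treated genotypes all 18 were lower in Ifnb-/- (median -1.32). None of these differences was called, but all 18 had an unadjusted limma p under 0.05, beside 3.06% of all genes lower. Untreated, 16 of the 18 were lower in Ifnb-/- (median -0.57). Ifnb1 itself read near the floor in all groups (group means 2.66 to 2.95) and does not check the genotype labels. The untreated Ifnb+/+ arrays stood apart from each other, with a median SD of the members of 0.271, against 0.0621 in untreated Ifnb-/-, 0.179 in Ifnb+/+ with IFN-b and 0.144 in Ifnb-/- with IFN-b. Replicates 1 and 2 of untreated Ifnb+/+ differed by more than 0.5 log2 units for 22 of 40 members (55%, against 35.7% of all genes). Replicate 3 lay between them for 35 members (87.5%, against 69.1% of all genes). The 15 microglia markers had a summed linear level of 3613 to 4373 in untreated Ifnb+/+, 2606 to 2847 in untreated Ifnb-/-, 1905 to 2399 in Ifnb+/+ with IFN-b and 2039 to 2300 in Ifnb-/- with IFN-b, with Cx3cr1, Itgam, P2ry12 and Tmem119 under a mean of 5 in every group, and 9 of the 15 fell with IFN-b in Ifnb+/+ and 1 in Ifnb-/-. The 11 granule neuron markers measured summed to 14907 to 17286, 19883 to 21552, 17206 to 18755 and 17412 to 18594 in the same order, with Cbln3 and Grin2c under 5 throughout, and the 10 astrocyte markers to 4720 to 5520 in the untreated arrays, 4462, 7479 and 11238 in Ifnb+/+ with IFN-b and 4897, 5172 and 14476 in Ifnb-/- with IFN-b. The 5 Purkinje cell markers measured were all below 0 with IFN-b in both genotypes (median log2 fold changes -0.52 and -0.77, none called in either genotype and 1, Car8, over both). Ppp1r17 was under a mean of 5 in every group, and Car8 in both groups with IFN-b. Their sums went from 1234 to 2759 untreated to 1266 to 1543 in Ifnb+/+, which overlap, and from 2142 to 2210 to 864 to 1492 in Ifnb-/-, which do not. These sums mostly follow Gad1, by far the brightest of the 5 (group means 9.97 to 10.86), and say little of the other markers. The 9 oligodendrocyte markers measured summed to 2590 to 3001 and 2080 to 3308 in Ifnb+/+ and to 2668 to 2936 and 1905 to 2597 in Ifnb-/-, untreated and with IFN-b. The part of these shifts in the values of the autophagy genes was not tested. In bulk cultures, fewer cells of a type and less RNA per cell cannot be told apart.

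Which autophagy transcripts changed when the neurons were given IFN-b was asked first. All calls pointed down. In Ifnb+/+, 6 of 40 members fell with IFN-b, namely Atg13, Pik3c3, Atg2b, Gabarapl1, Sqstm1 and Calcoco1, or 15% of the members beside 1.36% of all genes called lower, and none rose, beside 1.78% of all genes called higher. In Ifnb-/-, 4 members fell, namely Ulk2, Pik3c3, Gabarapl1 and Calcoco1 (10%, beside 0.742% of all genes), and none rose, beside 0.929%. All genes were taken here without a filter on brightness, and the array medians were 4.33 to 4.42. Of the members, only Prkaa1 and Atg10 had a mean under 5, so the shares set mostly brighter genes beside many dim ones. At an unadjusted p under 0.05, limma had 19 members lower and 2 higher in Ifnb+/+, beside 11.1% and 8.81% of all genes, and 10 lower and 0 higher in Ifnb-/-, beside 5.44% and 9.16%. The median log2 fold change of the members was -0.33 in Ifnb+/+ and -0.11 in Ifnb-/-, where the medians over all genes were -0.03 and 0.07. In 21 members the fold change was below 0 in both genotypes and in 7 it was above 0 in both. By genotype, 65% of the members were below 0 in Ifnb+/+, beside 56% of all genes. In Ifnb-/- these shares were 70% and 36.4%.

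**Figure D1:**
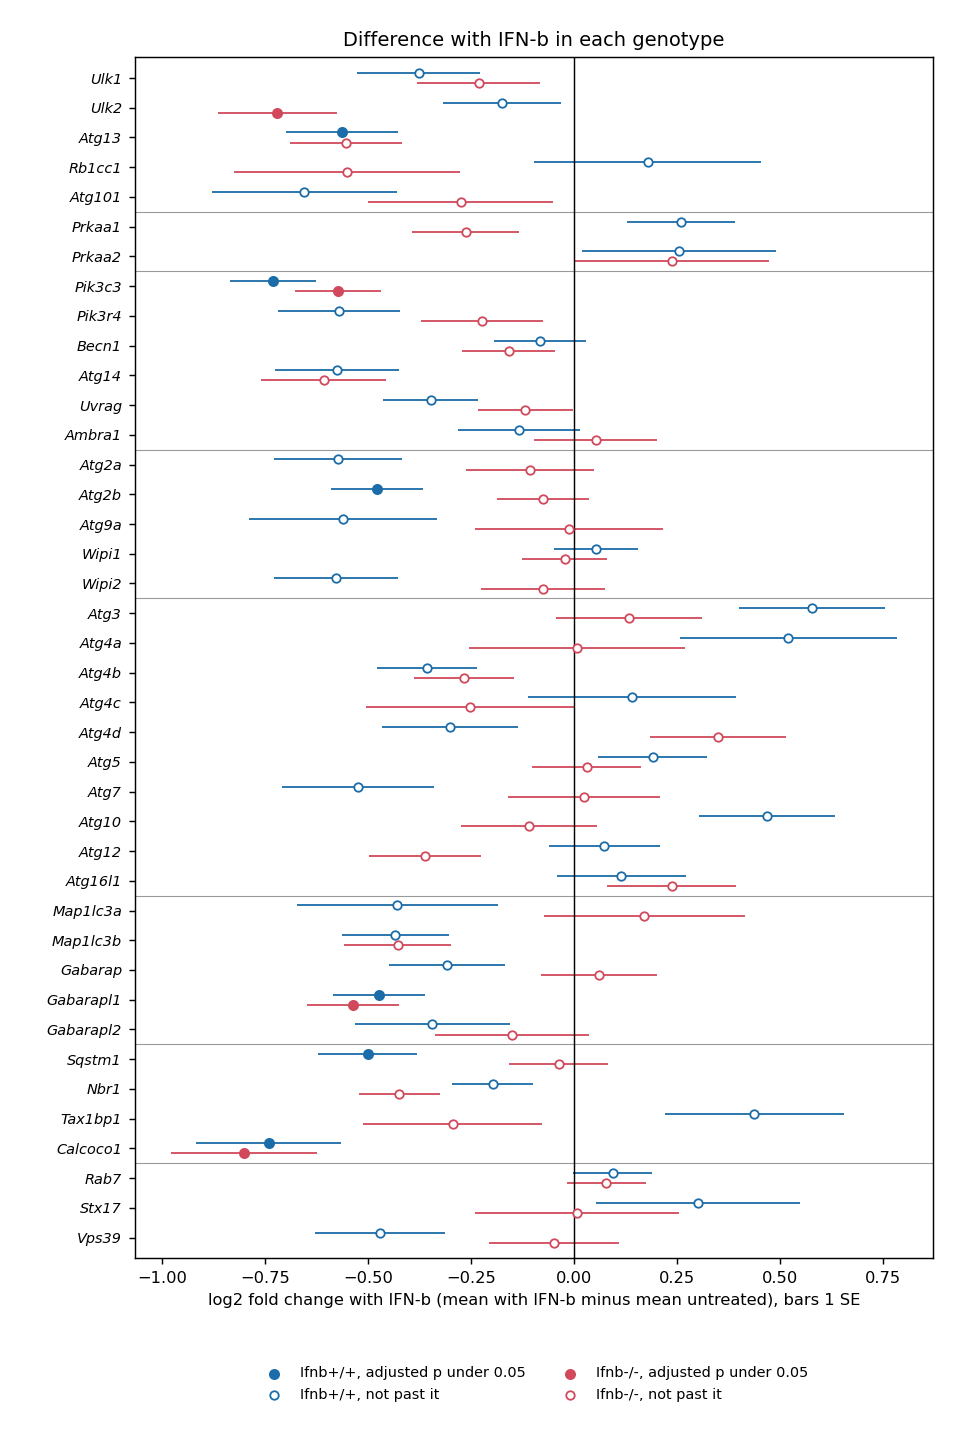
Log2 fold change with IFN-b (x axis, mean with IFN-b minus mean untreated, n = 3 arrays per group) for 40 autophagy genes ordered by role, in Ifnb+/+ (blue) and Ifnb-/- (red). Bars are 1 SE of the limma fit and filled points passed an adjusted p under 0.05; all 6 filled points of Ifnb+/+ and all 4 of Ifnb-/- lie left of 0.

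The treated and untreated arrays of a genotype did not overlap, with the treated ones lower, for 15 members in Ifnb+/+ (beside 9.28% of all genes) and for 15 in Ifnb-/- (beside 12.6%). The opposite order held for 1 member in Ifnb+/+, Atg3 (beside 6.67%), and for 3 in Ifnb-/-, Atg4d, Atg16l1 and Rab7 (beside 20.3%). The 2 genotypes have their own untreated arrays, and 8 members were lower without overlap in both, beside 2.46% of all genes. These were Atg13, Pik3c3, Pik3r4, Atg14, Atg4b, Map1lc3b, Gabarapl1 and Calcoco1. With both genotypes given equal weight, 8 members fell with IFN-b (beside 2.31% of all genes) and none rose (beside 2.53%), and at an unadjusted p under 0.05 these numbers were 18 and 1, beside 8.51% and 9.26%. The 8 were Ulk2, Atg13, Pik3c3, Atg14, Map1lc3b, Gabarapl1, Nbr1 and Calcoco1.

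Apart from Pik3c3, the calls in Ifnb+/+ had limma adjusted p from 0.0392 to 0.0459, and those in Ifnb-/- from 0.029 to 0.0451. With only the compared groups fitted, the 6 calls of Ifnb+/+ became 0, beside 0.72% of all genes. The 4 calls of Ifnb-/- became 9, beside 7.01%. Pik3c3 in Ifnb+/+ was the 1 call that held with each of the 12 arrays left out in turn. The other 5 calls of Ifnb+/+ held in 3 of these 12 fits each, and the 6 calls became 1 (Pik3c3) without replicate 1 or 3 of untreated Ifnb+/+, any replicate of untreated Ifnb-/-, replicate 3 of Ifnb+/+ with IFN-b or replicate 1 of Ifnb-/- with IFN-b, and 2 without replicate 2 of Ifnb+/+ with IFN-b or replicate 3 of Ifnb-/- with IFN-b. Without replicate 2 of untreated Ifnb+/+ they became 19, of which 16 were lower and 3 higher, while the called share of all genes went from 3.14% to 16%. The 4 calls of Ifnb-/- became 0 without any replicate of untreated Ifnb-/- or replicate 1 or 3 of Ifnb-/- with IFN-b, 1 without replicate 2 of Ifnb-/- with IFN-b or replicate 3 of untreated Ifnb+/+, and 7 without replicate 1 of untreated Ifnb+/+, where the share of all genes went from 1.67% to 3.88%. For the mean of both genotypes, Atg13, Pik3c3, Atg14, Gabarapl1 and Calcoco1 kept their calls in all 12 fits, Map1lc3b in 9, Nbr1 in 6 and Ulk2 in 5, and the count was 5 without replicate 3 of untreated Ifnb+/+ or replicate 1 or 2 of untreated Ifnb-/-, and 13 without replicate 2 of untreated Ifnb+/+, where the share of all genes went from 4.84% to 6.47%.

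Sequence upstream of some members that fell is shown since their calls had the same direction. Whether these genes move together was not tested. RefSeq windows of 300 bases (250 before to 50 after the gene start, GRCm38.p6) were at hand for 33 of the 40 members, and for 3 of the 4 members with the smallest adjusted p with IFN-b. Pik3c3, the member with the smallest of all, had no window and was not searched. All windows were searched on both strands for TTTCNNTTTC, the core of the element that interferon-activated factors bind, and for CACGTG, the E-box core that is also part of the element bound by TFEB. Among interferon-stimulated genes of the control list 13 of 16 windows held TTTCNNTTTC, among all genes 3.99%, and among the members 1 of 33, Nbr1. CACGTG was in the windows of 4 of 33 members, Atg3, Atg5, Atg7 and Atg14, beside 8.09% of all genes. Gabarapl1 (chr6:129532942-129533241, plus strand), Calcoco1 (chr15:102722129-102722428, minus strand) and Atg13 (chr2:91710543-91710842, minus strand) held neither. The windows of Nbr1 (chr11:101552404-101552703, plus strand) and Atg14 (chr14:47568385-47568684, minus strand), the called members with a match, are shown as well and were chosen after the search; capitals mark the match, which starts 9 bases before the gene start in Nbr1 and 1 base before it in Atg14. Of the 2 windows listed for Nbr1, the one with the match is printed, and no printed window holds both motifs. A match is a string of letters and not a measured site.
Gabarapl1: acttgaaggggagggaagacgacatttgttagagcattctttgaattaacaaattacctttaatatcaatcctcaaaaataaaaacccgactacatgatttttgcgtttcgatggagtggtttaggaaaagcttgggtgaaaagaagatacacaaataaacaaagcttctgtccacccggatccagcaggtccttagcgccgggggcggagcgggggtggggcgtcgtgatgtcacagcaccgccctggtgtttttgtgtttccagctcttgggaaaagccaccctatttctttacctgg
Calcoco1: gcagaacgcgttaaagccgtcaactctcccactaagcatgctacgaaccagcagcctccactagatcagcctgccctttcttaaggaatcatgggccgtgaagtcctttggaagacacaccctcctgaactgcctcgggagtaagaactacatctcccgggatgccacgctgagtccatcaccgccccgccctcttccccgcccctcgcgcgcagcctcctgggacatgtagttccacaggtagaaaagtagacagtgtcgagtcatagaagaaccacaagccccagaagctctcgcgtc
Atg13: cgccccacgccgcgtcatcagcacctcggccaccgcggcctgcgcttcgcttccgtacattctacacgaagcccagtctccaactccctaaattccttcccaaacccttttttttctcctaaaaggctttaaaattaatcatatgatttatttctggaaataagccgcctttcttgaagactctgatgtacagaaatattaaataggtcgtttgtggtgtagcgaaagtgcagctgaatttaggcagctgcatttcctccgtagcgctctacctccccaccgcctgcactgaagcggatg
Nbr1: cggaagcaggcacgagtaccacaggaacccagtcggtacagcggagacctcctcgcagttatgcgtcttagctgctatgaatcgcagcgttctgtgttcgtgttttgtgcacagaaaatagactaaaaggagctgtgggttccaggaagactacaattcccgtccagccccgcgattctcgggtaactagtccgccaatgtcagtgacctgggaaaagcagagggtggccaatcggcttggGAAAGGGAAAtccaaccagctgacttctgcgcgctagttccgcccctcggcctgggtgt
Atg14: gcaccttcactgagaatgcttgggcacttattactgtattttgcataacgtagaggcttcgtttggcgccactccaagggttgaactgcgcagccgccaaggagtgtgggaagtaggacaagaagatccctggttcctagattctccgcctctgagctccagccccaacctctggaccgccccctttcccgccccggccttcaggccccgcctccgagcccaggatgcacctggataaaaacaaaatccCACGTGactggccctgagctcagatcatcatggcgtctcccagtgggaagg

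The initiation complex had 2 of its 5 members called. Calls with IFN-b, all lower, numbered 1 in Ifnb+/+, 1 in Ifnb-/- and 2 over both genotypes. Among all genes 1.36%, 0.742% and 2.31% were called lower in these comparisons. Atg13, the adaptor subunit that holds the kinase complex together, read 6.87, 6.62 and 6.72 in untreated Ifnb+/+ and 6.48, 6.08 and 5.97 with IFN-b. The Ifnb-/- arrays read 6.71, 6.61 and 6.62 untreated and 6.15, 5.97 and 6.16 with IFN-b. All treated arrays were below all untreated arrays of either genotype. Atg13 fell by 0.56 ± 0.10 log2 (SE of the fit) over both genotypes (limma adjusted p = 0.00486), by 0.56 in Ifnb+/+ (adjusted p = 0.0459) and had a fold change of -0.55 in Ifnb-/- (adjusted p = 0.0705). Ulk2, a kinase of the complex, read 8.36, 8.99 and 8.71 in untreated Ifnb+/+ and 8.46, 8.47 and 8.61 with IFN-b, which overlap. In Ifnb-/- it read 9.13, 9.11 and 9.07 untreated and 8.52, 8.37 and 8.26 with IFN-b, all lower. Ulk2 fell by 0.72 ± 0.14 log2 in Ifnb-/- (limma adjusted p = 0.029), with a fold change of -0.17 in Ifnb+/+ (adjusted p = 0.532), and the difference between these was not called (interaction -0.55, adjusted p = 0.323). The paralog Ulk1 had log2 fold changes of -0.38 in Ifnb+/+ and -0.23 in Ifnb-/-, Atg101, which stabilizes Atg13, of -0.66 and -0.28, and Rb1cc1 (FIP200), the scaffold, of 0.18 and -0.55, none called. Rb1cc1 also had the largest SD of any member within untreated Ifnb+/+ (0.667).

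Of the energy-sensing kinase subunits, Prkaa1 and Prkaa2, the catalytic alpha subunits of AMPK, which phosphorylates Ulk1, neither was called in any comparison. Prkaa1 read 4.20, 4.45 and 4.27 in untreated Ifnb+/+, 4.72, 4.93 and 4.76 in untreated Ifnb-/-, 4.55, 4.34 and 4.81 in Ifnb+/+ with IFN-b and 4.50, 4.59 and 4.53 in Ifnb-/- with IFN-b. The untreated genotypes did not overlap, Ifnb-/- being higher, and the treated ones did. With Atg10 it was one of the 2 members whose mean over all arrays was under 5.

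The lipid kinase complex held the member with the smallest adjusted p. Pik3c3, the class III phosphatidylinositol 3-kinase Vps34 that makes the lipid mark of autophagosome membranes, read 7.05, 6.86 and 6.78 in untreated Ifnb+/+ and 6.08, 6.18 and 6.23 with IFN-b. The values in Ifnb-/- were 6.74, 6.57 and 6.63 untreated and 6.10, 6.09 and 6.03 with IFN-b. Every treated array was below every untreated array. Pik3c3 fell by 39.8% on the linear scale in Ifnb+/+ (log2 fold change -0.73 ± 0.10, limma adjusted p = 0.0022), fell by 32.8% in Ifnb-/- (-0.57 ± 0.10, adjusted p = 0.0195) and fell by 36.4% over both (-0.65 ± 0.07, adjusted p = 0.00026). Atg14, the subunit that directs the complex to the autophagosome, read 6.46, 6.08 and 6.31 in untreated Ifnb+/+ and 5.74, 5.91 and 5.47 with IFN-b. In Ifnb-/- the values were 6.19, 6.40 and 6.32 untreated and 5.72, 5.48 and 5.89 with IFN-b. Treated arrays were lower without overlap in both genotypes, and Atg14 fell by 0.59 ± 0.11 log2 over both (limma adjusted p = 0.00654), while its fold changes of -0.58 in Ifnb+/+ (adjusted p = 0.065) and -0.61 in Ifnb-/- (adjusted p = 0.0738) did not pass.

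Becn1 (Beclin 1), the scaffold of the same complex, read 8.73, 8.36 and 8.51 in untreated Ifnb+/+, 8.53, 8.53 and 8.44 in untreated Ifnb-/-, 8.44, 8.44 and 8.47 in Ifnb+/+ with IFN-b and 8.46, 8.32 and 8.25 in Ifnb-/- with IFN-b. These groups overlap. Its log2 fold change with IFN-b was -0.08 in Ifnb+/+ (95% confidence interval -0.33 to 0.16) and -0.16 in Ifnb-/- (-0.40 to 0.08). The regulatory kinase Pik3r4 (Vps15) had fold changes of -0.57 and -0.22 without overlap in either genotype, Uvrag, the subunit of the endosomal form of the complex, of -0.35 and -0.12, and Ambra1, a Beclin 1 regulator, of -0.13 and 0.05, none called. All 6 members of the complex had a fold change below 0 in Ifnb+/+ and 5 in Ifnb-/-, beside 56% and 36.4% of all genes.

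Among genes of membrane supply, Atg2b fell in Ifnb+/+. Atg2a and Atg2b are bridge-like proteins that carry lipid to the growing membrane. Atg2b read 6.42, 6.40 and 6.32 in untreated Ifnb+/+ and 6.07, 5.88 and 5.76 with IFN-b, all lower, a fold change of -0.48 ± 0.11 log2 (limma adjusted p = 0.0392). In Ifnb-/- it read 6.23, 6.24 and 6.40 untreated and 6.23, 6.11 and 6.30 with IFN-b, which overlap, with a fold change of -0.08 (adjusted p = 0.771). The difference between the genotypes was not called (interaction 0.40, 95% confidence interval 0.06 to 0.74, adjusted p = 0.323). Atg2a showed 6.25, 5.67 and 5.95 untreated and 5.22, 5.57 and 5.36 with IFN-b in Ifnb+/+, which do not overlap, and 5.62, 5.79 and 5.74 against 5.44, 5.58 and 5.81 in Ifnb-/-, which do. Wipi2, a reader of the lipid mark, showed 7.96, 7.55 and 7.79 against 7.51, 7.15 and 6.91 in Ifnb+/+, again apart, and 7.62, 7.52 and 7.55 against 7.43, 7.49 and 7.55 in Ifnb-/-. Neither was called, with fold changes of -0.57 and -0.58 in Ifnb+/+ (limma adjusted p = 0.0742 and 0.0638) and of -0.11 and -0.07 in Ifnb-/-. Atg9a, the lipid scramblase of seed vesicles, had fold changes of -0.56 and -0.01 in Ifnb+/+ and Ifnb-/-, and Wipi1, a relative of Wipi2, of 0.05 and -0.02.

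The 10 conjugation genes had no call in any comparison, and their median log2 fold change with IFN-b was 0.13 in Ifnb+/+ and 0.02 in Ifnb-/-. Atg3, the E2-like enzyme for LC3, was the 1 member whose treated arrays were all higher in Ifnb+/+ (0.58 ± 0.18, limma adjusted p = 0.106). Atg7, the E1-like enzyme of both systems, had -0.53 in Ifnb+/+ and 0.02 in Ifnb-/-. Atg10, the E2-like enzyme for Atg12, had 0.47 and -0.11, Atg12 itself 0.07 and -0.36, Atg5, its partner, 0.19 and 0.03, and Atg16l1, which places the conjugate on the membrane, 0.11 and 0.24. The LC3 proteases Atg4a, Atg4b, Atg4c and Atg4d had 0.52, -0.36, 0.14 and -0.30 in Ifnb+/+ and 0.01, -0.27, -0.25 and 0.35 in Ifnb-/-. Atg4d is described with the untreated genotypes. Atg4c, one of the 4 smallest p-values between the treated genotypes, read 5.55, 6.34 and 5.79 in Ifnb+/+ with IFN-b, 5.23, 5.61 and 5.35 in Ifnb-/- with IFN-b, 5.14, 6.08 and 6.04 in untreated Ifnb+/+ and 5.59, 5.86 and 5.50 in untreated Ifnb-/-, and all of these groups overlap.

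LC3 and GABARAP proteins coat the membrane and bind the receptors, and all 5 of their genes had a fold change below 0 in Ifnb+/+, beside 56% of all genes. Gabarapl1 read 10.19, 10.09 and 10.16 in untreated Ifnb+/+ and 9.65, 9.74 and 9.63 with IFN-b. The Ifnb-/- arrays read 10.08, 10.08 and 10.17 untreated and 9.66, 9.35 and 9.72 with IFN-b. The treated arrays were all lower, and Gabarapl1 fell by 28% in Ifnb+/+ (-0.47 ± 0.11, limma adjusted p = 0.0428), fell by 31.1% in Ifnb-/- (-0.54 ± 0.11, adjusted p = 0.0352) and fell by 29.5% over both (-0.51 ± 0.08, adjusted p = 0.00271). Map1lc3b, the LC3 gene whose protein is the usual marker of autophagosomes, read 10.59, 10.60 and 10.61 in untreated Ifnb+/+ and 10.45, 10.03 and 10.01 with IFN-b. In Ifnb-/- it read 10.66, 10.59 and 10.51 untreated and 10.27, 10.00 and 10.20 with IFN-b. These too did not overlap, and Map1lc3b fell by 0.43 ± 0.09 log2 over both genotypes (limma adjusted p = 0.0177), with -0.43 in Ifnb+/+ (adjusted p = 0.0993) and -0.43 in Ifnb-/- (adjusted p = 0.145). The other three were not called, with fold changes of -0.43 and 0.17 for Map1lc3a, -0.31 and 0.06 for Gabarap and -0.34 and -0.15 for Gabarapl2 in Ifnb+/+ and Ifnb-/-.

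Of the 4 cargo receptors read, 3 were called in some comparison. Those called lower with IFN-b were 2 in Ifnb+/+, 1 in Ifnb-/- and 2 over both genotypes. The shares of all genes called lower were 1.36%, 0.742% and 2.31%. Calcoco1, a receptor for the endoplasmic reticulum and the Golgi, read 6.23, 5.71 and 5.79 in untreated Ifnb+/+ and 5.01, 5.53 and 4.98 with IFN-b. For Ifnb-/- the values were 5.86, 6.05 and 6.13 untreated and 5.22, 5.05 and 5.36 with IFN-b. The groups stood apart in both genotypes, and Calcoco1 fell by 40.2% in Ifnb+/+ (-0.74 ± 0.18, limma adjusted p = 0.044), fell by 42.7% in Ifnb-/- (-0.80 ± 0.18, adjusted p = 0.0451) and fell by 41.4% over both (-0.77 ± 0.12, adjusted p = 0.00318), the largest fold of any member in each of these. Sqstm1 (p62), the receptor for ubiquitinated aggregates, read 10.65, 10.34 and 10.50 in untreated Ifnb+/+, 10.05, 9.99 and 10.14 in untreated Ifnb-/-, 10.14, 9.85 and 10.01 in Ifnb+/+ with IFN-b and 10.11, 9.89 and 10.08 in Ifnb-/- with IFN-b. Untreated Ifnb+/+ was above each of the other three groups, which overlap each other. Sqstm1 fell by 29.4% with IFN-b in Ifnb+/+ (-0.50 ± 0.12, limma adjusted p = 0.045), and in Ifnb-/- its fold change was -0.04 (95% confidence interval -0.30 to 0.22, adjusted p = 0.905). The difference of these effects was not called (interaction 0.46, interval 0.09 to 0.83, adjusted p = 0.323).

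Nbr1, the other receptor for ubiquitinated cargo, read 9.61, 9.82 and 9.80 in untreated Ifnb+/+ and 9.47, 9.62 and 9.55 with IFN-b, which overlap. In Ifnb-/- it read 9.94, 9.84 and 9.88 untreated and 9.43, 9.51 and 9.46 with IFN-b, which do not. Nbr1 fell by 19.4% over both genotypes (-0.31 ± 0.07, limma adjusted p = 0.0238), with -0.20 in Ifnb+/+ (adjusted p = 0.29) and -0.42 in Ifnb-/- (adjusted p = 0.0564). Tax1bp1, a receptor for ubiquitinated cargo and bacteria, had fold changes of 0.44 in Ifnb+/+ and -0.29 in Ifnb-/- and was not called. Of the fusion genes, Rab7, the small GTPase of late endosomes, read 9.87, 10.07 and 10.01 in untreated Ifnb+/+, 9.99, 10.05 and 10.07 in untreated Ifnb-/-, 10.03, 10.15 and 10.04 in Ifnb+/+ with IFN-b and 10.11, 10.15 and 10.09 in Ifnb-/- with IFN-b. The treated arrays overlapped the untreated ones in Ifnb+/+ and lay just above them in Ifnb-/-, with fold changes of 0.09 (95% confidence interval -0.12 to 0.30) and 0.08 (-0.13 to 0.29), not called. The SNARE gene Stx17 had 0.30 and 0.01 and Vps39, a subunit of the tethering complex, -0.47 and -0.05, neither called.

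**Figure D2:**
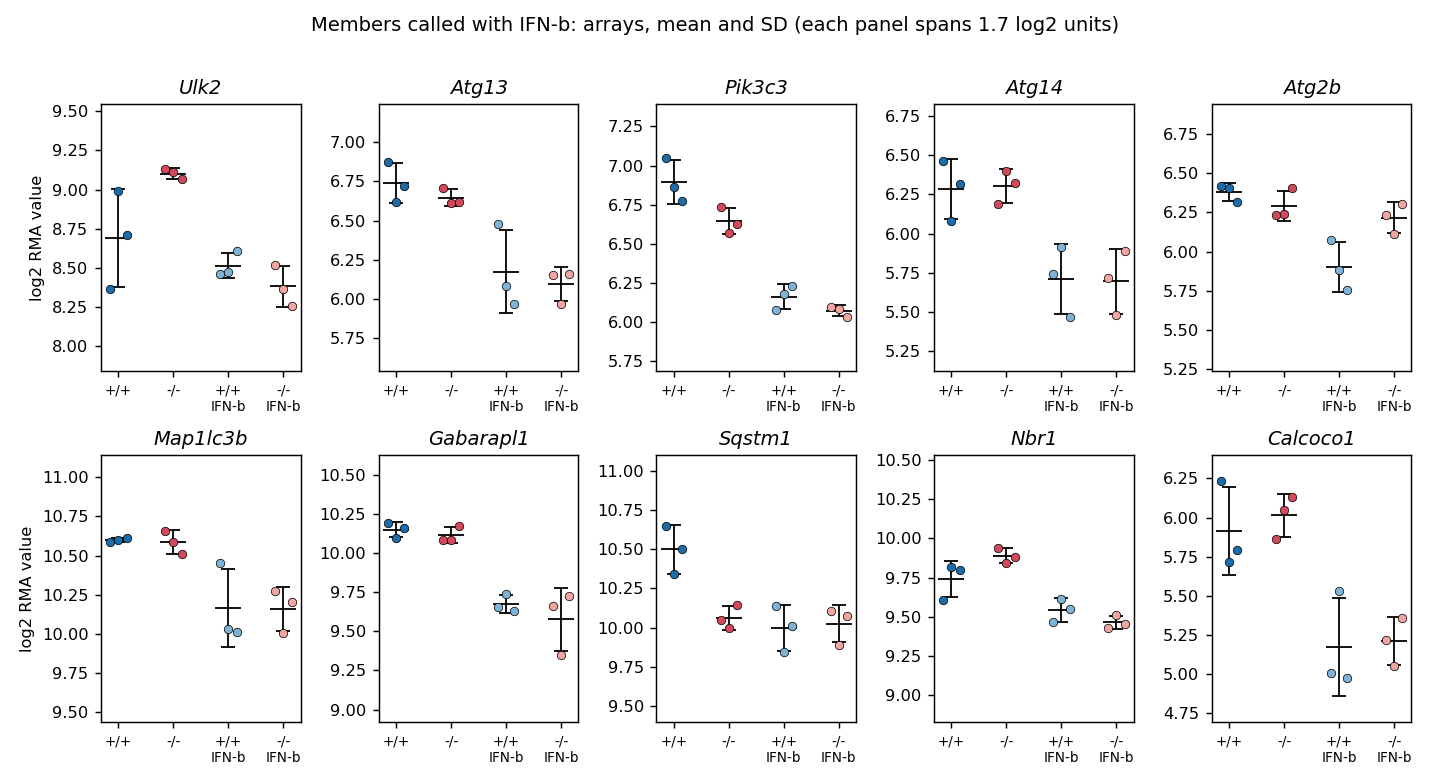
Log2 RMA values (y axis, 1.7 log2 units in each panel) of the 10 autophagy genes called in at least 1 comparison with IFN-b, by group (x axis). Points are the 3 arrays of a group and bars the mean ± SD; Pik3c3, Gabarapl1 and Calcoco1 are lower with IFN-b in both genotypes, while Sqstm1 is high in untreated Ifnb+/+ alone (10.34 to 10.65).

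How far a call rested on 1 probe set was read from the others. The 40 members had 96 single-gene probe sets, with 10 members read from 1 and the others from up to 6. The 10 genes called with IFN-b had 24, of which 23 had a fold change below 0 over both genotypes. These 23 include the 10 probe sets that made the calls, all of them lower, so only the others bear on this. Of the 24, 18 had a mean of at least 5, and these 18 were all below 0. The 1 above 0, a probe set of Atg2b with a mean of 3.40, had a fold change of 0.02. Tested among all single-gene probe sets, the second one of Gabarapl1 fell by 0.78 in Ifnb+/+ (limma adjusted p = 0.00885) and by 0.81 in Ifnb-/- (adjusted p = 0.0133), more than the one used. All 4 probe sets of Map1lc3b were below 0 in both genotypes, from -0.43 to -0.72. The second one of Nbr1 fell by 0.97 in Ifnb-/- (adjusted p = 0.0249). The second one of Calcoco1, with a mean of 4.32, showed -0.02 in Ifnb+/+ and -0.26 in Ifnb-/-, so the size of its fall rests on 1 probe set. Pik3c3 and Atg14 had 1 probe set each. Among members not called, the sign could change with the probe set. In Ifnb+/+, the second probe set of Rb1cc1 (mean 6.24) showed -0.75, against 0.18 for the one used. That of Atg12 (mean 6.32) showed -0.62, against 0.07. With all 34945 single-gene probe sets tested together, Pik3c3 stayed called in Ifnb+/+ (adjusted p = 0.00371), and the probe sets used for the other 5 genes called there had limma adjusted p from 0.0528 to 0.0601. In Ifnb-/-, those of Pik3c3 (0.0267), Ulk2 (0.0385) and Gabarapl1 (0.0467) stayed called and that of Calcoco1 (0.0565) did not.

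**Figure D3:**
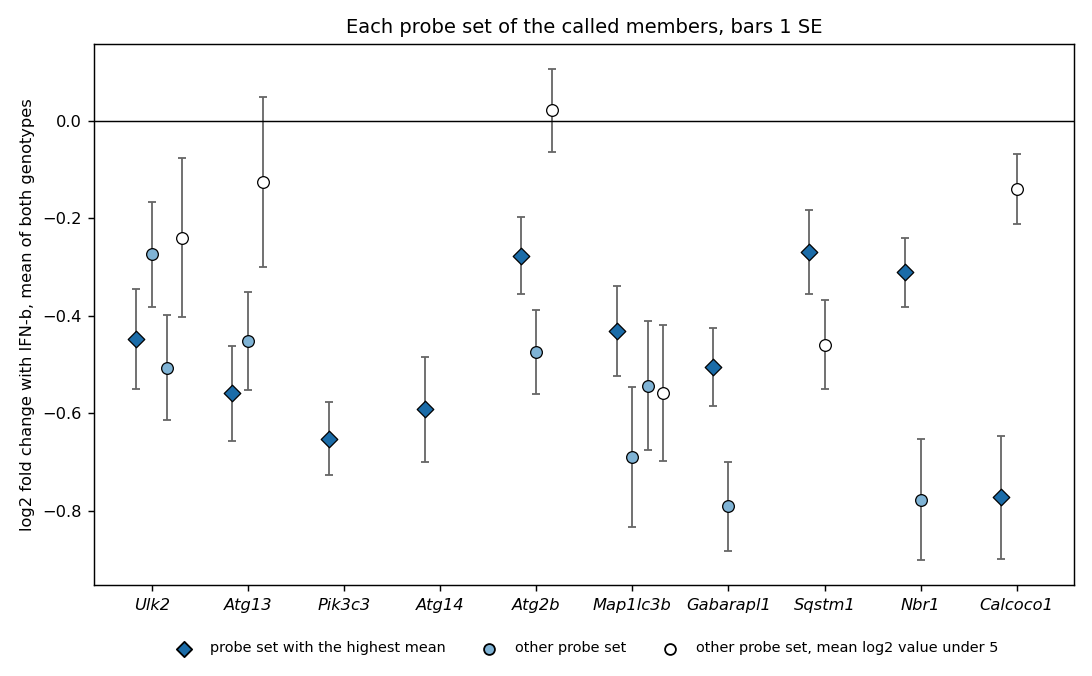
Log2 fold change with IFN-b as the mean of both genotypes (y axis) for each of the 24 single-gene probe sets of the 10 called autophagy genes (x axis). Diamonds are the probe sets used for the gene, circles the others, open where the mean log2 value is under 5, and bars 1 SE. Of the 24, 23 lie below 0, among them the 10 diamonds, which made the calls.

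**Figure D4:**
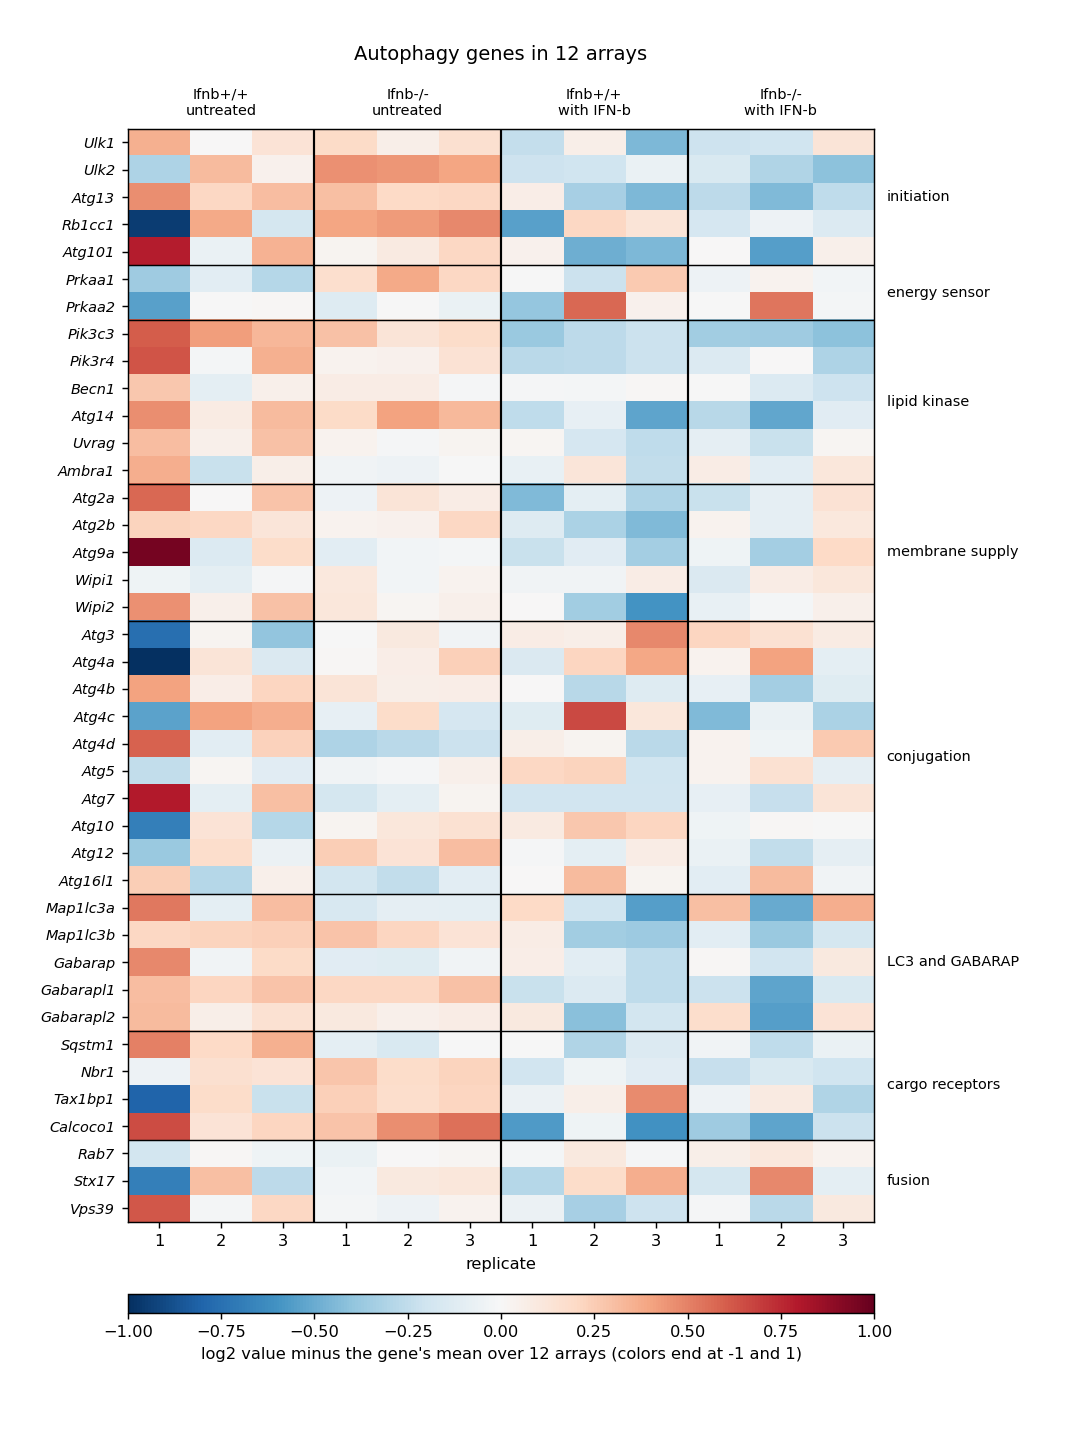
Log2 value of 40 autophagy genes, by role, in each of 12 arrays minus the gene's mean over all arrays (color, ending at -1 and 1). Pik3c3, Gabarapl1, Atg13 and Calcoco1 are above their means in all 6 untreated arrays, and the 3 untreated Ifnb-/- arrays look alike (median SD of the members 0.0621).

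The next question was whether loss of Ifnb alone changed these transcripts. Between the untreated genotypes no member was called, beside 0.0824% of all genes called lower and 0.033% called higher in Ifnb-/-. The smallest adjusted p was 0.154, the median log2 fold change (Ifnb-/- minus Ifnb+/+) of the members was -0.06 and that of all genes -0.09. At an unadjusted p under 0.05, limma had 4 members lower in Ifnb-/- and 7 higher, beside 12.8% and 8.4% of all genes, and the methods' test had 1 lower and 1 higher, beside 12.1% of all genes in either direction. Arrays did not overlap for 5 members lower in Ifnb-/- (Pik3c3, Uvrag, Atg4d, Gabarap and Sqstm1) and 4 higher (Ulk2, Rb1cc1, Prkaa1 and Nbr1), beside 18.1% and 10.1% of all genes. The share of members in either direction was near or under that of all genes, apart from the 17.5% at the unadjusted p that were higher.

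The 4 members with the smallest p between the untreated genotypes were Prkaa1 (0.50 ± 0.13), Sqstm1 (-0.44 ± 0.12), Atg4d (-0.50 ± 0.17) and Ulk2 (0.41 ± 0.14), with limma adjusted p from 0.154 to 0.193. Atg4d, a protease that also removes LC3 from membranes, read 6.97, 6.28 and 6.61 in untreated Ifnb+/+ and 6.07, 6.10 and 6.17 in untreated Ifnb-/-. With IFN-b it read 6.44, 6.41 and 6.10 in Ifnb+/+ and 6.42, 6.34 and 6.64 in Ifnb-/-. The untreated groups did not overlap and the treated ones did. Without replicate 2 of untreated Ifnb+/+, 11 members were called, 7 higher in Ifnb-/- (Ulk2, Rb1cc1, Prkaa1, Atg3, Atg10, Atg12 and Tax1bp1) and 4 lower (Pik3r4, Atg4d, Atg7 and Sqstm1), and without any other single array none was. Leaving out that array brought the called genes among all genes from 21 to 3846, or 21.1%.

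**Figure D5:**
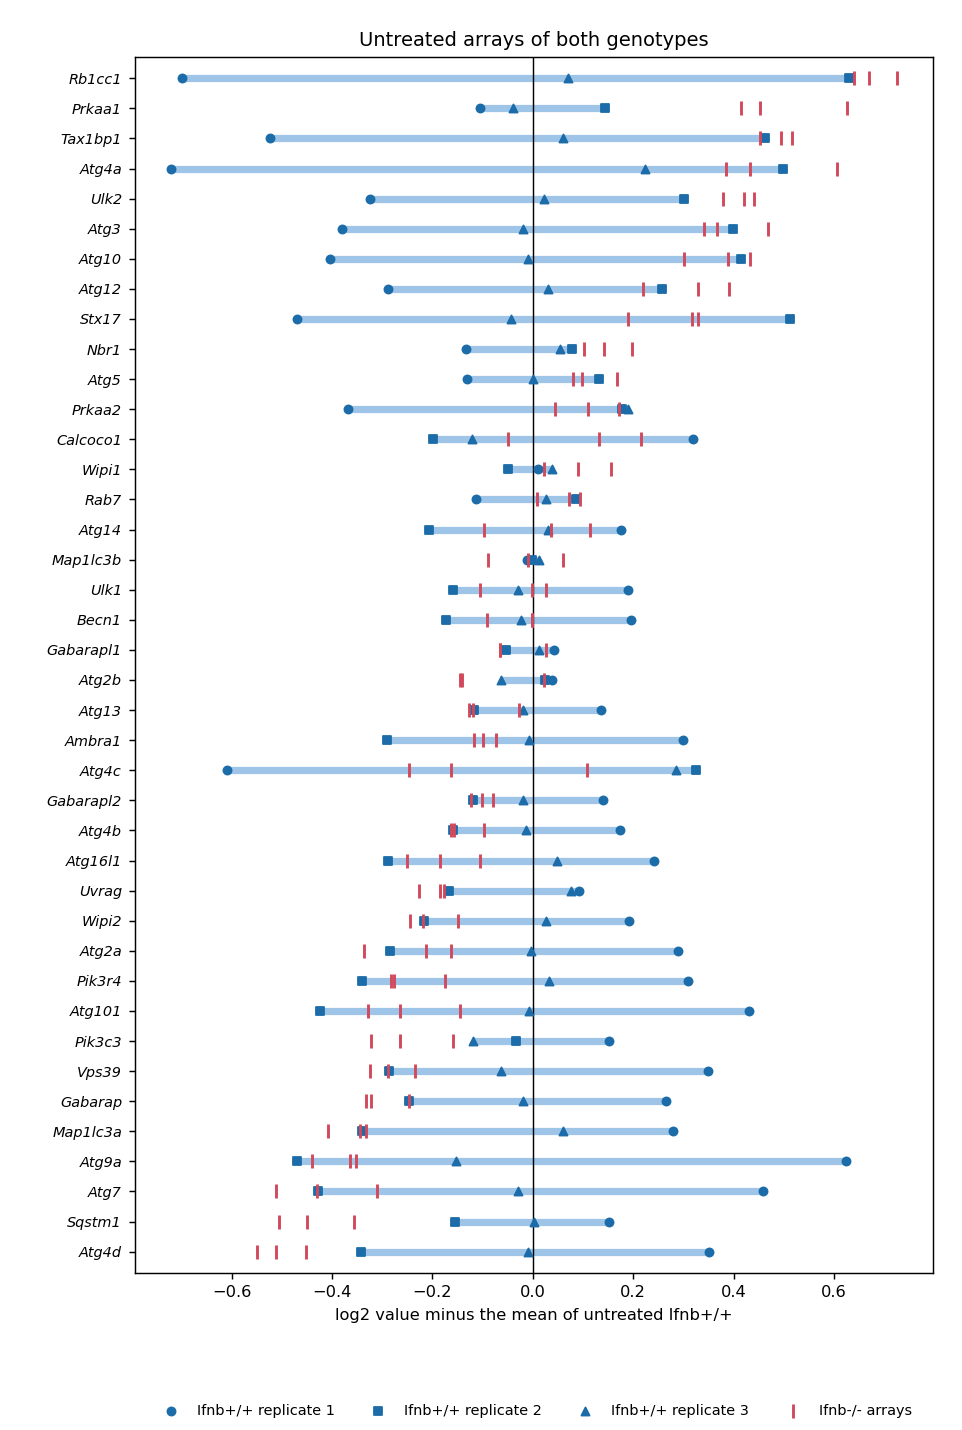
Log2 value minus the mean of untreated Ifnb+/+ (x axis) for 40 autophagy genes in the 6 untreated arrays. Blue symbols are the 3 Ifnb+/+ arrays, with a bar over their range, and red ticks the 3 Ifnb-/- arrays. The Ifnb-/- arrays lie wholly to the left of the Ifnb+/+ range for 5 genes and to the right of it for 4. That range runs from replicate 1 to replicate 2 for 35 of 40 (87.5%, against 69.1% of all genes).

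Between the genotypes with IFN-b, no member was called, beside 0.055% of all genes lower and 0.0055% higher in Ifnb-/-. The smallest adjusted p was 0.737, for Atg2b (0.31 ± 0.11), and the median log2 fold change of the members was 0.00, with 0.03 over all genes. At an unadjusted p under 0.05, limma had 0 members lower and 1 higher, beside 3.06% and 1.88% of all genes, and the methods' test had 1 lower and 1 higher, beside 3.91% of all genes in either direction. Whether the response to IFN-b differed between the genotypes was tested by the interaction, where again no member was called, beside 0% of all genes in the negative direction and 0.022% in the positive one. At an unadjusted p under 0.05, limma had 5 members with a negative and 4 with a positive interaction, beside 5.21% and 10.1%, and the smallest p-values were those of Prkaa1 (-0.52), Atg4d (0.65), Sqstm1 (0.46) and Ulk2 (-0.55), each at a limma adjusted p of 0.323. Without replicate 2 of untreated Ifnb+/+ the interaction was called for 3 members, Ulk2 (-0.70), Atg4d (0.82) and Atg10 (-0.78), beside 6.8% of all genes in that fit, a share like that of the members, and for none without any other single array. Members that were called with IFN-b in 1 genotype and not in the other, such as Sqstm1, Atg2b and Ulk2, are therefore not shown to differ between genotypes.

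Other genes of the pathway were read from 4 lists. Among all genes, 1.36% were called lower and 1.78% higher with IFN-b in Ifnb+/+. These shares were 0.742% and 0.929% in Ifnb-/-, and 2.31% and 2.53% over both genotypes. Of 14 other early autophagy genes, 1 fell and 1 rose in Ifnb+/+ and 2 fell in Ifnb-/-. Wdr45, a relative of the Wipi genes, fell by 0.69 ± 0.16 log2 in Ifnb+/+ (limma adjusted p = 0.0344) and by 1.09 ± 0.16 in Ifnb-/- (adjusted p = 0.00428), and Zfyve1, whose protein marks the sites where autophagosomes form, fell by 0.67 ± 0.13 in Ifnb-/- (adjusted p = 0.0231). Dapk1, a death-associated kinase that phosphorylates Beclin 1, rose by 1.04 ± 0.15 in Ifnb+/+ (adjusted p = 0.00197). Of 15 genes of selective autophagy measured, 0 were called in either genotype. Over both genotypes Pink1, the kinase that flags damaged mitochondria, fell by 0.64 ± 0.14 (limma adjusted p = 0.0242). Of 17 tethering and SNARE genes, Rab7b fell in Ifnb+/+ (-1.10 ± 0.20, limma adjusted p = 0.0113). Of 21 upstream regulators, Foxo3 (-0.56 ± 0.12, adjusted p = 0.0218) and Flcn (-0.56 ± 0.10, adjusted p = 0.011) fell in Ifnb+/+, and Tsc1 (-0.35 ± 0.09, adjusted p = 0.0429) joined them over both genotypes in limma. At an unadjusted p under 0.05, limma had 4 early genes lower and 2 higher in Ifnb+/+, and 3 and 0 in Ifnb-/-. Selective autophagy had 4 and 1, and 1 and 2. Tethering and SNARE genes had 8 and 1, and 1 and 1, and upstream regulators 7 and 2, and 3 and 2. Among all genes 11.1% were lower and 8.81% higher at that p in Ifnb+/+, and 5.44% and 9.16% in Ifnb-/-. None of the 4 lists had a call in the other 3 comparisons. In the interaction, for which the median over all genes was 0.11, their medians were 0.20, 0.20, 0.36 and 0.27 in the order above, and that of the members was 0.01.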

How the data were processed

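RNA from 12 cultures was hybridised to Affymetrix mouse arrays. The deposited values are log2 expression values that the authors made from the scanned arrays with RMA, which includes quantile normalization, so a shift common to all genes is removed and low values are compressed. Arrays give no read depth, and 3 arrays per group limit the precision. Of 45037 probe sets, 34945 named 1 gene, 932 several and 9160 none, by the platform annotation. Each gene was read from its brightest single-gene probe set.

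A model of 4 group means was fitted over 18193 genes with limma 3.58.1 (R 4.3.3), with 8 residual degrees of freedom, moderated variances and Benjamini-Hochberg adjustment in each of 6 comparisons. The code was run on simulated data in which a gene had the same SD in all groups. That run does not cover the unequal spread of the groups here. The methods' t-test was run as an alternative. Genes given by array were those called in a comparison, the 4 with the smallest p in each, and Becn1, Map1lc3b, Sqstm1, Nbr1 and Rab7. The members and all gene lists were chosen with earlier results of these data known. Plots were drawn with matplotlib 3.10.9.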

Additional observations from a re-analysis of the deposited data

How the results depend on the processing

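The 6 counts and 6 medians of the autophagy genes were recomputed under the alternatives, which gave 228 values, of which 43 differed by more than 1.5 times (counts) or the replicate spread (medians). The medians of the comparisons with IFN-b and of the untreated genotypes stayed below 0 throughout. The median between the treated genotypes (0.003) was -0.014 without replicate 3 of Ifnb-/- with IFN-b, and that of the interaction (0.008) was -0.034 without replicate 3 of Ifnb+/+ with IFN-b and -0.022 after quantile normalization once more, so neither has a settled sign. Members called in untreated Ifnb-/- against Ifnb+/+ (0) became 26 with array weights (59.8% of all genes called) and 2 by the methods' t-test unadjusted, and 0 to 11 with each array left out in turn. With IFN-b in Ifnb+/+, 6 became 3 with probe sets averaged per gene, 2 with arrays centred on their medians, 26 with array weights (30.8% of all genes), 0 with the compared groups alone, 12 by the methods' t-test unadjusted (8.07%) and 0 adjusted, and 1 to 19 with an array left out. In Ifnb-/-, 4 became 2 with centring, 15 with array weights (28.1%), 9 with the compared groups alone (7.01%), 13 by the methods' t-test unadjusted (21.7%), and 0 to 7 with an array left out. Between treated genotypes, 0 became 2 by the methods' t-test unadjusted (3.91%). The interaction went from 0 to 20 with array weights (34.6%) and to 0 to 3 with an array left out, and the mean of both genotypes from 8 to 21 (25.8%) and to 5 to 13. The array weights did not reach their tolerance and gave replicate 3 of untreated Ifnb+/+ a weight of 5740, against 0.0986 to 1.66 for the others. With an array left out, the member median ran from -0.431 to -0.238 in Ifnb+/+, and from -0.034 to 0.091 for the interaction. These and the medians under the other settings except centring were added after seeing the data. The causes were not tested.

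With the replicate number as a block, the 4 calls in Ifnb-/- became 2 (Ulk2 and Pik3c3), with Gabarapl1 (limma adjusted p = 0.052) and Calcoco1 (0.074) lost. In Ifnb+/+ there were 6, with Wipi2 gained and Calcoco1 lost (0.0556), and over both genotypes 9, with Atg4b gained. Same-numbered untreated and treated arrays deviated with correlations of 0.0647 to 0.298 in Ifnb+/+ and 0.0505 to 0.0733 in Ifnb-/-. Between genotypes they ran from -0.501 to 0.432. Whether the numbers pair cultures is not settled by these values, and the main fit used no block.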
